A study of Sus scrofa with 4 samples.

Results

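The enzymes of mitochondrial fatty acid beta-oxidation were examined in pig (Sus scrofa) blastocysts through 16 oligonucleotide probes of 10 genes. The probes were all those of the array whose platform annotation, keyed by spot number, names CPT2, SLC25A20, ACADVL, ACADL, ACADM, ACADS, HADHA, HADHB, HADH or ACAA2. They are 10 of 10024 genes named on the array and 16 of 43794 EMPV1 probes, of which 13146 carry a gene symbol. High NEFA pools were 10 blastocysts each, grown from oocytes exposed to high NEFAs, non-esterified fatty acids, which the blood carries in larger amounts when adipose tissue breaks down its fat. Control pools were 10 blastocysts each from control oocytes. Each of 4 two-colour arrays held 1 high NEFA and 1 control pool. Replicates 1 and 2 had the high NEFA pool in Cy3, replicates 3 and 4 had it in Cy5, and the control pool carried the other dye. Pools were collected on days 7 and 8, and the labels do not say which pool came from which day. The series title mentions a GCs monolayer as co-culture. It does not expand GCs or say whether both kinds of pool were grown with it. The labels give no dose and no sow or strain. They call the arrays biological replicates without naming separate animals, so p-values reflect only how far these pools differ among themselves, and that spread may be technical. In each p-value the spread of a probe was weighed with that of the other probes tested.

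Beta-oxidation shortens fatty acids inside mitochondria and passes their electrons to the respiratory chain. Long-chain acyl groups enter as carnitine esters, are returned to coenzyme A by CPT2, and then go through repeated rounds of dehydrogenation, hydration, a further dehydrogenation and thiolysis. Pig oocytes and embryos are rich in stored lipid, and beta-oxidation is one of the routes by which mammalian oocytes and early embryos make ATP.

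Total RNA is the molecule in the labels, while the extraction and labelling protocols describe genomic DNA cut with methylation-sensitive enzymes. Which of the 2 was hybridised was not tested, and the values below are therefore called probe signals. A spot counted as above background when its raw median intensity passed the mean plus 2 SD of the 153 negative control spots scanned with it in that dye. The limit lay between 310.1 and 369 for Cy3 and between 205 and 247 for Cy5. Between 49.97% and 58.6% of EMPV1 probes were above it in high NEFA channels, and between 49.0% and 60.3% in control channels. Of the markers listed for the blastocyst, all 6 trophectoderm genes on the array (GATA2, GATA3, TFAP2C, TEAD4, DAB2 and ELF3), 4 of 5 hypoblast genes and 2 of 4 inner cell mass genes were above background in all 8 channels. CDX2, POU5F1 and NANOG had no probe under that symbol. The 3 granulosa cell genes on the array had a summed level of 1144 to 1935 in high NEFA pools and 1062 to 1843 in control pools, in normalised linear units. Of these 3, AMH was above background in all 8 channels, and INHBA and NR5A1 in 1 and 2. The 9 oocyte genes had a summed level of 2197 to 2722 in high NEFA pools and 2217 to 2664 in control pools, with BMP15 above background in 0 channels. In the limma fit described below, 3 of 6 tested trophectoderm and 2 of 3 tested inner cell mass genes had an unadjusted p under 0.05. So did 0 of 5 hypoblast, 0 of 1 granulosa cell and 1 of 6 oocyte genes, against 6.41% of all tested probes. For the genes under that p, the log2 ratios of high NEFA over control were 0.31 (GATA3), 0.37 (TFAP2C), 0.28 (DAB2), 0.40 (LIN28A), 0.36 (UTF1) and -0.33 (GDF9). The other tested oocyte genes went both ways, at 0.093 (ZP2), -0.0036 (ZP3), -0.23 (ZP4), -0.20 (NLRP5) and 0.30 (ZAR1). So did the hypoblast genes, at 0.22 (GATA6), 0.0058 (PDGFRA), -0.18 (FN1), -0.35 (APOA1) and 0.16 (HNF4A). The remaining tested markers had 0.045 (GATA2), 0.12 (TEAD4), 0.016 (ELF3), 0.15 (SOX2) and 0.068 (AMH). No marker had an adjusted p under 0.05. The part of other cell types in the results below was not tested. In a pool, fewer cells of a type and less RNA per cell cannot be told apart.

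No beta-oxidation enzyme passed the threshold between high NEFA and control pools. Every one of the 10 genes had at least 1 probe with measurable signal, and 12 of the 16 probes exceeded background in each of the 8 channels (75.0%, against 31.7% of all EMPV1 probes). All 16 carry a gene symbol, while 30648 of the 43794 EMPV1 probes carry none, so the bases of these shares differ. The 14 probes above background in at least 4 channels were tested together with all other such probes, 24524 in number, using limma on log2 ratios with high NEFA on top and control below. Of the 14, 0 had a Benjamini-Hochberg adjusted p under 0.05, against 0% of all tested probes, and 1 had an unadjusted p under 0.05 (7.14%, against 6.41% of all tested probes). The fitted ratio was positive for 5 probes and negative for 9 (64.3%, against 51.8% of all tested probes), with a median of -0.055 against -0.0087 over all tested probes. The 9 include every tested probe of HADH and of HADHB, each with more than 1, and ACADS had 1 probe on each side. This share therefore counts probes and not genes. Per array, the median ratio of the 14 probes was -0.12, 0.069, -0.14 and -0.16 on replicates 1 to 4. The fitted ratios ran from -0.27 for a probe of HADHB to 0.40 for a probe of ACADL, and the adjusted p from 0.764 to 0.995. The 95% interval of 13 of the 14 probes lay within 1.5-fold in either direction (92.9%, against 87.9% of all tested probes). The interval of ACADL reached farthest, to 1.62-fold.

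The carnitine shuttle was represented by CPT2 and SLC25A20. CPT2, carnitine palmitoyltransferase of the inner membrane, remakes acyl-CoA from acylcarnitine in the matrix. Its probe EMPV1_08084 had raw intensities of 460, 845, 451 and 345 in the high NEFA pools of replicates 1 to 4, against 298, 352, 676 and 615 in the control pools. The high NEFA pools spanned a wider range than the control pools, and the ranges overlapped. After background correction and loess, the ratios on replicates 1 to 4 were -0.066, 0.62, 0.0067 and -0.22, so that replicate 2 stood highest and the arrays did not share 1 sign. The fitted ratio was 0.086 ± 0.15 (SE, n = 4), or 1.06-fold (95% interval 0.846 to 1.33), at an adjusted p of 0.924 by limma. Without replicate 2 it was -0.086.

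SLC25A20, the carnitine-acylcarnitine translocase, exchanges acylcarnitine for free carnitine across the inner membrane. Its probe EMPV1_36769 had raw intensities of 1355, 708, 405 and 524 in the high NEFA pools of replicates 1 to 4, against 560, 369, 1048 and 1256 in the control pools. In both kinds of pool the Cy3 values were above the Cy5 values, and the ranges of the 2 kinds overlapped. The ratios were 0.73, 0.27, -0.80 and -0.75, positive on both arrays with the high NEFA pool in Cy3 and negative on both with it in Cy5. The fitted ratio was -0.14 ± 0.13 (SE, n = 4) at an adjusted p of 0.852 by limma, and the dye term of the same fit, log2 of Cy5 over Cy3, was -0.64 ± 0.13 (SE) at an adjusted p of 0.00936. The other probe, EMPV1_02213, had raw intensities of 367, 257, 151 and 175 in the high NEFA pools of replicates 1 to 4, against 183, 138, 265 and 315 in the control pools, and was above background in 1 high NEFA channel and in 0 control channels. It was not tested, and no fold is given for it.

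The 4 acyl-CoA dehydrogenases take the first oxidation step of each round, each with a preferred chain length, from very long (ACADVL) and long (ACADL) to medium (ACADM) and short (ACADS). ACADL had the largest fitted ratio of the 14 probes and the only unadjusted p under 0.05. Its probe EMPV1_15256 had raw intensities of 1251, 1067, 1388 and 1829 in the high NEFA pools of replicates 1 to 4, against 1226, 776, 1094 and 1420 in the control pools. On each array the high NEFA channel was the brighter, whichever dye it carried, while the ranges of the 2 kinds of pool overlapped. After background correction and loess the ratios were -0.52, -0.14, 1.23 and 1.03, negative on both arrays with the high NEFA pool in Cy3 and positive on both with it in Cy5. The fitted ratio was 0.40 ± 0.13 (SE, n = 4), or 1.32-fold (95% interval 1.07 to 1.62), with an unadjusted p of 0.0132 and an adjusted p of 0.764 by limma. Its dye term was larger than its exposure term, at 0.73 ± 0.13 (SE, adjusted p 0.00538).

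The local background around this ACADL spot was raised on every channel, and most on both channels of replicate 4 and the control channel of replicate 3. On replicates 1 to 4 it measured 56, 56, 56 and 192 beside the high NEFA signal and 61, 75, 220 and 231 beside the control signal, where the median local background over EMPV1 probes was 32 to 47. With 1 background value per array and channel the fitted ratio was 0.30, with no background correction 0.28, and with mean in place of median pixel intensity 0.85, in each case with an adjusted p above 0.05. The unadjusted p by limma was 0.0532, 0.0319 and 4.4e-05 in turn, the last among 31186 tested probes. With a trended robust prior it was 0.0611, and without a dye term 0.247. With mean pixel intensity the adjusted p was 0.368 and the array ratios were -0.65, -0.55, 2.36 and 2.26, so that the split by dye orientation was wider. Mean pixel values of the local background were higher than median ones, at 429, 529, 223 and 458 beside the high NEFA signal and 270, 309, 774 and 770 beside the control signal. The mean pixel signals themselves were 1134, 945, 1193 and 1511 in the high NEFA pools, against 1075, 768, 1005 and 1029 in the control pools. The part of the raised background in the ratio was not tested beyond these values. A second ACADL probe, EMPV1_17856, was above background in 2 high NEFA and 1 control channels and was not tested. Its raw intensities were 358, 273, 230 and 250 in the high NEFA pools of replicates 1 to 4, against 249, 192, 336 and 347 in the control pools, close to the background limit throughout. No fold is given for it.

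ACADM, the medium-chain enzyme, had raw intensities of 1453, 1470, 1862 and 1467 in the high NEFA pools of replicates 1 to 4, against 1219, 1237, 1811 and 1346 in the control pools for its probe EMPV1_37391. Again the high NEFA channel was the brighter on each of the 4 arrays, and the ranges of the pools overlapped. In raw signal, 2 of the 14 tested probes, those of ACADL and ACADM, were higher in high NEFA on all 4 arrays (against 0.714% of all tested probes). None was lower on all 4, and 1.10% of all tested probes had 1 direction on all 4. This count takes no account of dye and was made after the values were seen. The normalised ratios were -0.28, -0.34, 0.59 and 0.68, with opposite signs in the 2 dye orientations. The exposure term was 0.16 ± 0.12 (SE, n = 4) with a 95% interval of -0.11 to 0.44 and an adjusted p of 0.821 by limma. The dye term was 0.47 ± 0.12 (SE, adjusted p 0.0227).

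ACADVL, which is bound to the inner membrane and starts on the longest chains, had raw intensities of 1072, 839, 853 and 876 in the high NEFA pools of replicates 1 to 4, against 665, 840, 850 and 1212 in the control pools for its probe EMPV1_33442. The ratios were 0.12, -0.66, 0.65 and 0.089, lowest on replicate 2 and highest on replicate 3. Over the 4 arrays the fitted ratio was 0.049 ± 0.16 (SE, n = 4) at an adjusted p of 0.965 by limma, and leaving out 1 array gave values from -0.15 to 0.24.

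ACADS, the short-chain enzyme, had 2 tested probes whose fitted ratios had opposite signs, and both intervals included 0. The probe EMPV1_30450 had raw intensities of 933, 977, 966 and 824 in the high NEFA pools of replicates 1 to 4, against 698, 714, 808 and 1367 in the control pools, and ratios of -0.18, -0.18, 0.90 and -0.19. Replicate 3 alone was positive, and the other 3 arrays nearly coincided. The fit gave 0.089 ± 0.17 (SE, n = 4), and -0.18 without replicate 3. The probe EMPV1_13931, close to the background limit and above it in 4 high NEFA and 3 control channels, had raw intensities of 498, 362, 280 and 265 in the high NEFA pools of replicates 1 to 4, against 280, 177, 494 and 573 in the control pools. Its ratios were 0.046, 0.40, -0.17 and -0.51, positive with the high NEFA pool in Cy3 and negative with it in Cy5, and its fitted ratio was -0.059 ± 0.13 (SE, n = 4). By limma the adjusted p was 0.939 for EMPV1_30450 and 0.950 for EMPV1_13931.

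**Figure D1:**
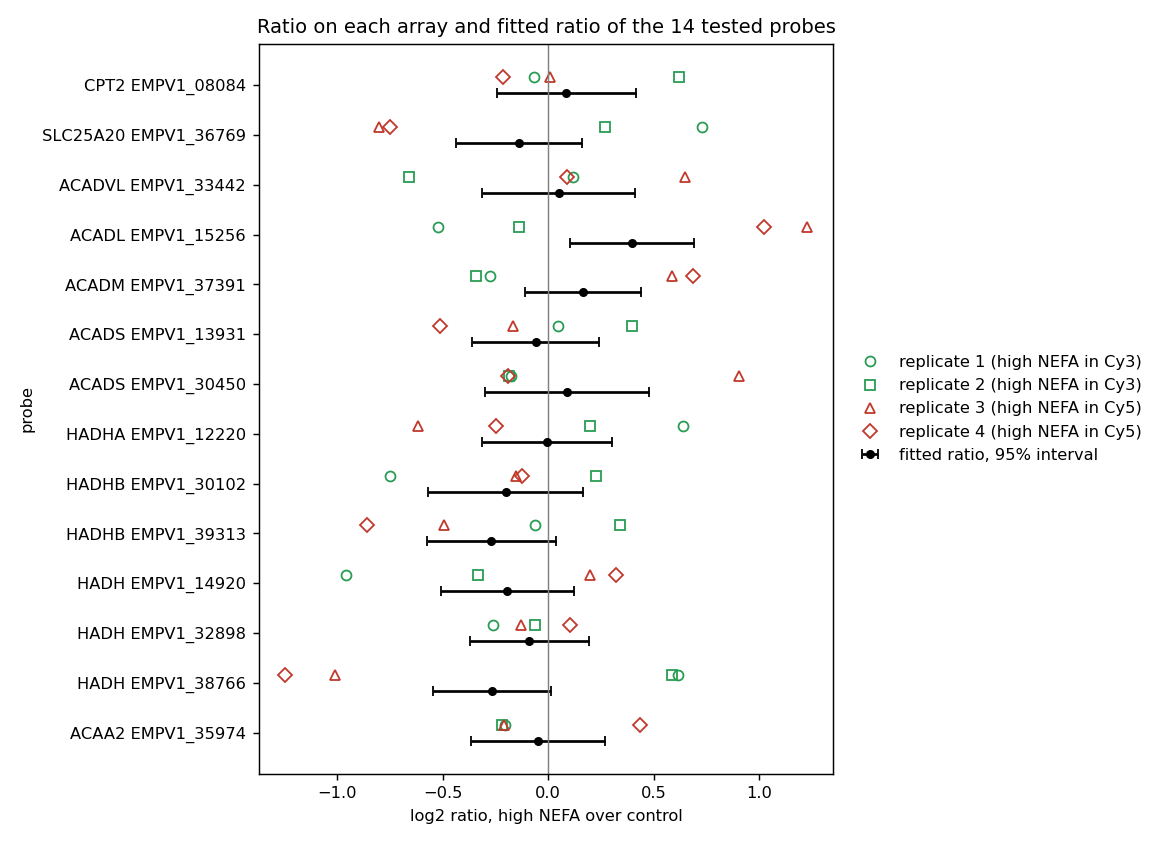
Log2 ratio of high NEFA over control on each array after background correction and loess (open symbols, green with the high NEFA pool in Cy3 and red with it in Cy5), and the fitted ratio with its 95% interval (black), for the 14 tested probes. The interval includes 0 for 13 probes, and for ACADL EMPV1_15256, ACADM EMPV1_37391, SLC25A20 EMPV1_36769 and HADH EMPV1_38766 the green and red symbols lie on opposite sides of 0.

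HADHA and HADHB are the alpha and beta subunits of the mitochondrial trifunctional protein, which carries out hydration, the second dehydrogenation and thiolysis of long chains. In the Sscrofa11.1 annotation of RefSeq the genes lie next to each other on 1 chromosome, with 0 annotated genes between them. The HADHA probe EMPV1_12220 had raw intensities of 5727, 4375, 2896 and 2940 in the high NEFA pools of replicates 1 to 4, against 2784, 2766, 6090 and 4703 in the control pools. Every Cy3 value was above every Cy5 value, the pools overlapped within Cy3, and within Cy5 both high NEFA pools lay slightly above both control pools. Within 1 dye the 2 kinds of pool come from different arrays. The median Cy5 intensity over EMPV1 probes was 214, 202, 232 and 247 on replicates 1 to 4, so the arrays with high NEFA in Cy5 were brighter in that dye. The ratios were 0.64, 0.20, -0.62 and -0.25, with a fitted ratio of -0.0067 ± 0.14 (SE, n = 4), a 95% interval of -0.32 to 0.30 and an adjusted p of 0.995 by limma. The interval corresponds to 0.803 to 1.23 times the control signal.

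HADHB had 2 probes, both with a negative fitted ratio. The probe EMPV1_30102 had raw intensities of 2091, 3909, 2540 and 2211 in the high NEFA pools of replicates 1 to 4, against 2544, 2393, 3944 and 3318 in the control pools. Its ratios were -0.75, 0.23, -0.15 and -0.12, and the fitted ratio was -0.20 ± 0.16 (SE, n = 4) at an adjusted p of 0.831 by limma. Replicate 1 was the lowest, and without it the fitted ratio was 0.044. The probe EMPV1_39313 had raw intensities of 675, 723, 358 and 363 in the high NEFA pools of replicates 1 to 4, against 426, 358, 784 and 971 in the control pools. Around this probe the local background was 91, 56, 46 and 48 beside the high NEFA signal and 63, 46, 66 and 80 beside the control signal. The median over EMPV1 probes was 32 to 47, and the part of this background was not tested. Its ratios were -0.063, 0.34, -0.49 and -0.86, and its fitted ratio of -0.27 ± 0.14 (SE, n = 4) was the lowest of the 14, with a 95% interval of -0.58 to 0.037 and an adjusted p of 0.765. Across the arrays left out in turn this ratio ran from -0.37 to -0.17. The mean over both probes gave -0.24 ± 0.15 (SE), also short of the threshold at an adjusted p of 0.791 by limma.

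HADH, the soluble 3-hydroxyacyl-CoA dehydrogenase of medium and short chains, had 3 tested probes, all with a negative fitted ratio. The probe EMPV1_38766 had raw intensities of 3996, 4229, 1896 and 1669 in the high NEFA pools of replicates 1 to 4, against 1938, 2019, 5323 and 5363 in the control pools. All 4 Cy3 values were above all 4 Cy5 values. Within Cy3 both high NEFA pools lay below both control pools, and within Cy5 likewise. These raw values within 1 dye come from different arrays. The median intensity over EMPV1 probes on replicates 1 to 4 was 370, 332, 379 and 397 in Cy3 and 214, 202, 232 and 247 in Cy5. The ratios were 0.61, 0.59, -1.01 and -1.25, with a fitted ratio of -0.27 ± 0.13 (SE, n = 4), a 95% interval of -0.55 to 0.015 and an adjusted p of 0.764 by limma. The dye term of this probe was the largest of the 14, at -0.87 ± 0.13 (SE, adjusted p 0.00268), or 1.82-fold brighter in Cy3.

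The HADH probe EMPV1_32898 had ratios of -0.26, -0.063, -0.13 and 0.10 and a fitted ratio of -0.089 ± 0.13 (SE, n = 4), with raw intensities of 1365, 1732, 990 and 1338 in the high NEFA pools of replicates 1 to 4, against 1093, 1189, 1641 and 1816 in the control pools. Its 4 ratios spanned 0.37, the narrowest of the 14 probes. Around EMPV1_32898 the local background was 90, 91, 62 and 64 beside the high NEFA signal and 56, 59, 109 and 94 beside the control signal. These values were above the median over EMPV1 probes of 32 to 47, and their part was not tested. The third probe, EMPV1_14920, was close to the background limit and above it in 3 high NEFA and 4 control channels. Its raw intensities were 286, 393, 277 and 296 in the high NEFA pools of replicates 1 to 4, against 263, 289, 411 and 394 in the control pools. The ratios were -0.96, -0.33, 0.20 and 0.32, and the fitted ratio was -0.19 ± 0.14 (SE, n = 4). The dye term was 0.45 ± 0.14 (SE, adjusted p 0.0453), of the opposite sign to that of EMPV1_38766. The 3 probes of this gene thus shared the sign of the exposure term but not that of the dye term. The mean over the 3 gave -0.18 ± 0.13 (SE) at an adjusted p of 0.803 by limma.

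ACAA2, a thiolase of the mitochondrial matrix that splits off acetyl-CoA at the end of a round, had raw intensities of 1664, 880, 810 and 1043 in the high NEFA pools of replicates 1 to 4, against 1352, 654, 1389 and 1143 in the control pools for its probe EMPV1_35974. The ranges of the 2 kinds of pool overlapped. The ratios were -0.20, -0.22, -0.21 and 0.44, with replicate 4 alone positive. Its fitted ratio was -0.050 ± 0.14 (SE, n = 4) with a 95% interval of -0.37 to 0.27 and an adjusted p of 0.958 by limma.

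The dye term was larger in size than the exposure term in 12 of the 14 probes. The dye term had an adjusted p under 0.05 for 5 probes (35.7%, against 22.8% of all tested probes). It was positive, that is brighter in Cy5 after loess, for ACADL EMPV1_15256, ACADM and HADH EMPV1_14920, and negative for SLC25A20 EMPV1_36769 and HADH EMPV1_38766. The median size of the dye term was 0.36 over the 14 probes and 0.24 over all tested probes, and that of the exposure term was 0.11 and 0.11. Of the 14 probes, 7 switched sign between the dye orientations, both arrays of each orientation having the same sign (50%, against 41.7% of all tested probes). None of the 14 had the same sign on all 4 arrays (0 of 14, against 7.84% of all tested probes). The 4 ratios of a probe spanned 1.15 in the median, against 0.84 over all tested probes. The median SE of the fitted ratio was 0.14, and 0.13 over all tested probes. These shares describe 14 probes that were not tested against the rest. The dye assignment is that of the labels. Replicates 1 and 2 share 1 orientation, and replicates 3 and 4 the other. A dye effect and a difference in ratio between these pairs of replicates therefore cannot be told apart.

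**Figure D2:**
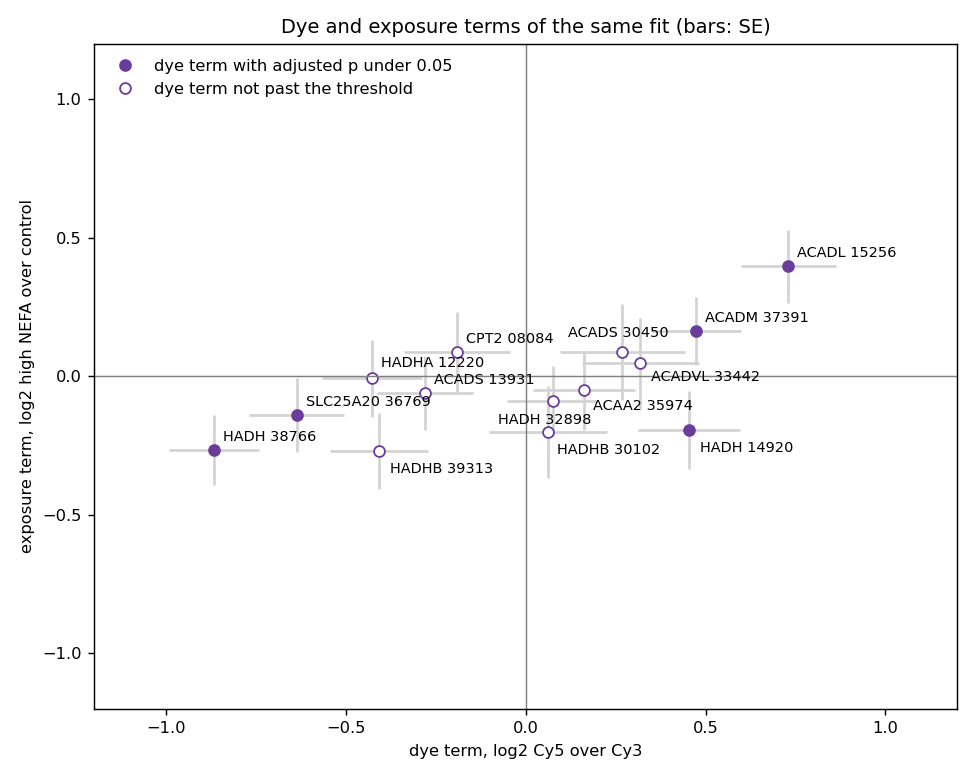
Dye term (horizontal, log2 Cy5 over Cy3) against exposure term (vertical, log2 high NEFA over control) of the 14 tested probes from the same limma fit, both axes on 1 scale, with bars of 1 SE and filled points for a dye term past the adjusted threshold. Labels give the gene and the last digits of the probe name. Points spread from -0.87 to 0.73 along the dye axis and from -0.27 to 0.40 along the exposure axis.

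Normalised levels, from loess followed by quantile scaling of the mean intensity between arrays, showed the spread between pools behind these ratios. For ACADL EMPV1_15256 the mean log2 level was 10.29 ± 0.49 in high NEFA pools and 9.89 ± 0.42 in control pools (SD, n = 4 each). For HADHA it was 11.89 ± 0.32 in high NEFA pools and 11.89 ± 0.28 in control pools (SD, n = 4 each). For HADH EMPV1_38766 it was 11.38 ± 0.56 in high NEFA pools and 11.65 ± 0.48 in control pools (SD, n = 4 each), and for the HADHB probe EMPV1_30102 it was 11.32 ± 0.47 in high NEFA pools and 11.52 ± 0.17 in control pools (SD, n = 4 each). In each of these the difference between the 2 means was smaller than the SD of the high NEFA pools. For HADHB EMPV1_30102 it was larger than the SD of the control pools, 0.17. This comparison leaves out the pairing of pools on an array. These SDs hold any dye effect as well as the differences between pools.

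Other genes of fatty acid oxidation and linked steps were taken from a list of 45 symbols, of which 29 had a probe and 24 a tested probe. Of the 24, 0 passed the adjusted threshold in either direction, 4 had an unadjusted p under 0.05 (against 6.41% of all tested probes), and 9 were fitted higher and 15 lower (against 51.8% lower of all tested probes), with a median of -0.049. The smallest p belonged to ETFDH, which passes electrons from acyl-CoA dehydrogenases to ubiquinone, to OXCT1, which activates ketone bodies for oxidation, and to ACSL6, a long-chain acyl-CoA synthetase. ETFDH had ratios of -0.42, -0.87, -0.52 and -0.047 and a fitted ratio of -0.46 ± 0.14 (SE). OXCT1 had -0.35, -0.68, -0.15 and -0.33, with a fitted ratio of -0.38 ± 0.13 (SE). Both were negative on all 4 arrays, and 6 of the 24 in all had 1 sign on all 4 (against 7.84% of all tested probes). ACSL6 had 0.49, 0.22, -0.91 and -0.96, split by dye orientation, with a fitted ratio of -0.29 ± 0.13 (SE) and a dye term of -0.64 at an adjusted p of 0.00728. The adjusted p of the exposure term was 0.764 for each of the 3 by limma. CPT1A, the carnitine palmitoyltransferase of the outer membrane that limits entry of long chains, was above background in 3 of 8 channels and was not tested. ECHS1, the matrix enoyl-CoA hydratase, was measured in all 8 channels and had -0.28 ± 0.14 (SE, adjusted p 0.765).

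**Figure D3:**
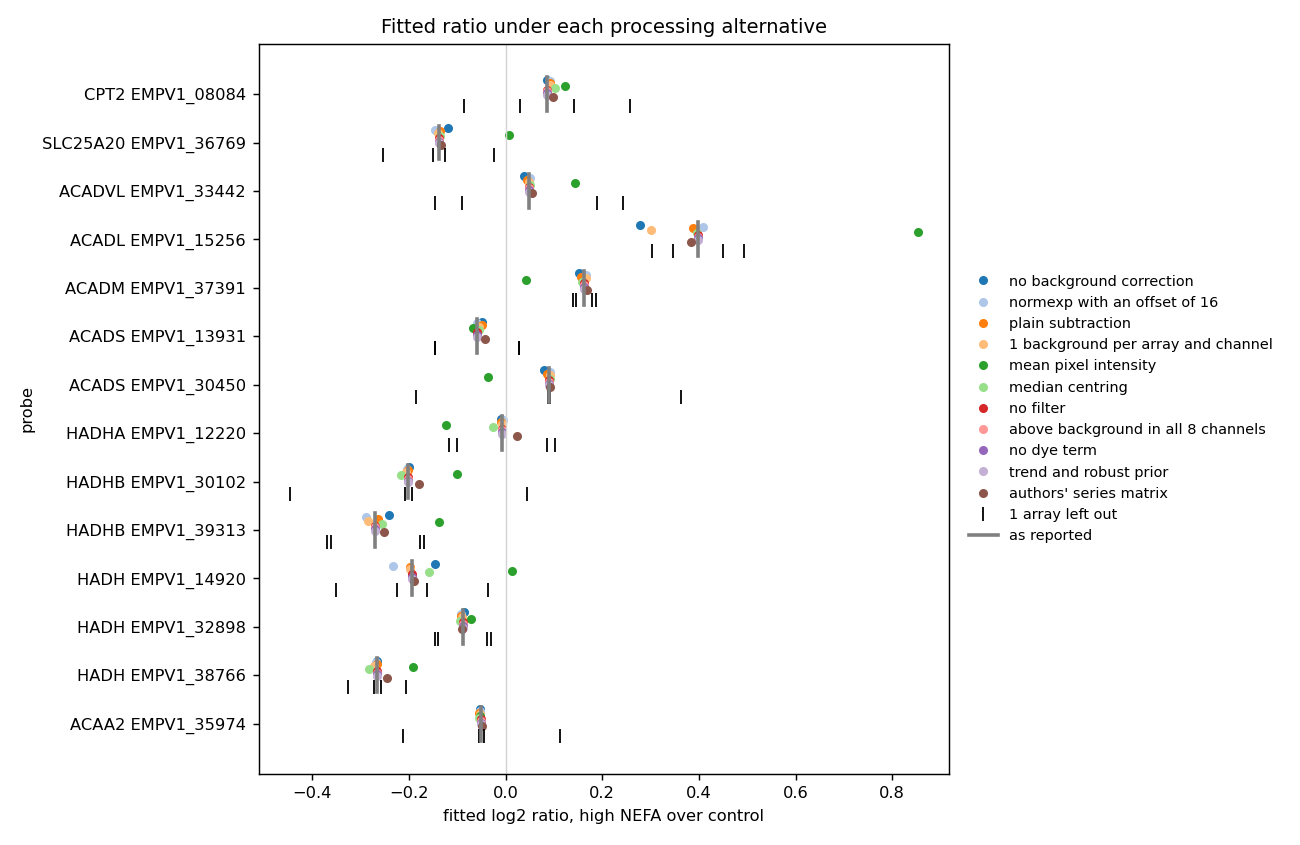
Fitted log2 ratio of high NEFA over control for the 14 tested probes as reported (grey bars), under 11 processing alternatives (coloured dots) and with each array left out in turn (black ticks). Most dots lie on the grey bars, as those for filter, dye term and moderation must. The dots for mean pixel intensity stand apart most for ACADL, and the ticks spread across 0 for CPT2, ACADVL, ACADS, HADHA, HADHB EMPV1_30102 and ACAA2.

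A change of filter, dye term or moderation leaves the fitted ratio of a probe unchanged in this balanced design, so only the other alternatives could turn a sign. Leaving out 1 array turned the sign of 7 of the 14 fitted ratios at least once, and 5 of the 14 kept 1 sign under every alternative and every array left out. These 5 were ACADL EMPV1_15256 and ACADM with positive and HADHB EMPV1_39313, HADH EMPV1_32898 and HADH EMPV1_38766 with negative ratios, with no adjusted p under the threshold in any of these fits. The lowest adjusted p of any of the 14 probes under any setting was 0.298, for ACADL without replicate 1.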

How the data were processed

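Pools of pig blastocysts were measured on 4 two-colour arrays of 45220 spots. Per the file headers, the deposited scanner output gives mean and median pixel intensity for spots and for their surroundings in the green (Cy3) and red (Cy5) channels, unsubtracted. Image software and its version are not given in the sources used here. The authors' deposited series matrix holds log2 ratios. Their scale, centring and direction are not stated, and the submitters' processing notes name limma alone. Each column correlated at 0.978 to 0.989 with log2 of Cy5 over Cy3 after plain subtraction and loess (43794 spots), its median was 0.0022 to 0.016, and it served as an alternative.

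Median intensities were corrected with normexp (offset 50) and loess within each array, with control spots and the 17 to 60 marked spots of an array at weight 0, in limma 3.58.1 under R 4.3.3. Probes above background in 4 or more of 8 channels, 24524 in all, entered 1 fit of log2 Cy5 over Cy3 with moderated variances. Its terms were a dye intercept and the exposure, with the sign turned where high NEFA was in Cy3. With 2 residual and 7.87 prior degrees of freedom, the number of arrays limits the precision. Calls needed an adjusted p under 0.05 (Benjamini-Hochberg, two-sided) over all tested probes. Gene symbols came from the platform annotation, with 13146 probes holding 1 symbol, 0 several and 30648 none. For the lists of other pathway genes and markers, 218 probes with an older symbol took the RefSeq symbol. No member spot was saturated or marked.

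The genes and lists were chosen with earlier results of these data known. All probes of all 10 genes are named, as are the 3 other pathway genes of smallest p, each by its brightest probe. CPT1A and ECHS1 were named after their values were seen. Alternatives changed background, pixel summary, normalisation, filter, dye term, moderation and source of the ratio, or left out 1 array.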

Additional observations from a re-analysis of the deposited data

Results flagged for a closer look

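In 4 of 48 sets of 4 values examined (the ratio, the high NEFA level and the control level of each of the 16 probes), 1 array stood apart from the other 3 by a gap above Dixon's 95% limit. Chance alone marks about 1 in 20 sets whose 4 values come from 1 normal distribution. These sets mix both dye orientations, and the sets of 1 probe share the same measurements, so that rate need not hold here. The ratio of ACADS EMPV1_30450 was 0.90 on replicate 3 and -0.19 to -0.18 on the other arrays. The ratio of ACAA2 EMPV1_35974 was 0.44 on replicate 4 and -0.22 to -0.20 on the others. The log2 level of HADH EMPV1_14920 in the high NEFA pool of replicate 1 was 7.26, against 8.14 to 8.17 in the other high NEFA pools, and that channel was the 1 of 8 in which the probe was not above background. The log2 level of HADH EMPV1_32898 in the control pool of replicate 2 was 10.63, against 10.28 to 10.31 in the other control pools.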

How the results depend on the processing

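In every alternative and with any array left out, 0 of the 14 probes and 0 of the listed pathway genes passed the threshold (pathway genes under 7 alternatives only). Of 208 values of single probes under alternatives, 194 kept their sign and 14 did not. A change of filter, dye term or moderation left the fitted ratio of a probe as it was. Values under those alternatives could not change sign, yet they count among the 194. With mean pixel intensity the ratio was 0.0064 for SLC25A20 EMPV1_36769, -0.036 for ACADS EMPV1_30450 and 0.013 for HADH EMPV1_14920, and in the authors' series matrix it was 0.023 for HADHA. With 1 array left out, ratios ran from -0.086 to 0.26 for CPT2, -0.15 to 0.24 for ACADVL, -0.15 to 0.028 and -0.18 to 0.36 for ACADS EMPV1_13931 and EMPV1_30450, -0.12 to 0.10 for HADHA, -0.45 to 0.044 for HADHB EMPV1_30102 and -0.21 to 0.11 for ACAA2. The median of the members kept a negative sign, from -0.12 without replicate 4 to -0.028 with no filter or with the filter at all 8 channels. Over all probes, 0 passed as reported (1573 at an unadjusted p under 0.05), 4 with an offset of 16, 5 with plain subtraction, 5 with no filter, 2 with a trended robust prior and 3 in the series matrix. With an array left out the count was 77, 70, 36 and 22 without replicates 1 to 4, in fits that leave 1 array alone in its dye orientation, assumed to vary like the others. The cause was not tested. Probes near the background limit (SLC25A20 EMPV1_02213, ACADL EMPV1_17856, ACADS EMPV1_13931 and HADH EMPV1_14920) are limited by signal.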

Other observations

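In raw median intensity, before any correction for background or dye, ACADL EMPV1_15256 and ACADM EMPV1_37391 were brighter in the high NEFA channel on all 4 arrays, by 1.02, 1.38, 1.27 and 1.29 times for ACADL and 1.19, 1.19, 1.03 and 1.09 times for ACADM. In mean pixel intensity before background correction, ACADL was brighter in high NEFA on all 4 arrays, over a local background of 223 to 529 beside the high NEFA and 270.1 to 774 beside the control signal, and after correction for it and loess its ratio was negative on replicates 1 and 2. In the same measure ACADM had 1467 in the high NEFA and 1501 in the control channel of replicate 3, and 1165 and 1244 on replicate 4. With median intensities, corrected and after loess, the ratios of both were negative on replicates 1 and 2.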
